A study of Mus musculus with 19 samples.

Results

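Mettl14, Sec24d and Synpo2 are 3 neighbouring protein-coding genes on mouse chromosome 3, of 54749 annotated genes with a quantified transcript. They were taken by name and position, with their 20 annotated transcripts and the 30 long-read structures, of 285526 in 8 assemblies, that overlap their stretch of the chromosome. RNA came from neural progenitor cells, the dividing cells that give rise to cortical neurons and glia, isolated from embryonic cortices of mice wild-type for Mettl14 (WT) or carrying a Mettl14 conditional knockout (KO), and cultured in medium holding FGF2 and EGF (20 ng/ml of each). The ladder libraries (4 WT and 4 KO) were made by splitting mRNA by length into 7 bands and reading pairs of 75 bp, and 3 standard WT libraries were read singly at 50 bp without the split. Nanopore long reads were taken of native RNA molecules and of direct cDNA, with 2 replicates for each genotype and chemistry, and each such pair was pooled into 1 assembly by StringTie and 1 by FLAIR. The labels name no Cre driver, age, sex or number of animals, and nothing in them says that replicates came from separate cultures or animals, so p-values measure the spread between these libraries only.

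Mettl14 pairs with Mettl3 in the nuclear enzyme that writes N6-methyladenosine (m6A) into mRNA: Mettl3 carries the catalytic site and Mettl14 holds the RNA and the complex together. In the embryonic cortex this mark is known for its part in the timing of progenitor division and neurogenesis. Sec24d is one of 4 Sec24 proteins of the COPII coat, which picks cargo for vesicles that leave the endoplasmic reticulum. Synpo2 (myopodin) is an actin-bundling protein of the synaptopodin family, known best from the Z-discs of muscle and from smooth muscle cells.

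In the GRCm38 build with the GENCODE M21 annotation, Mettl14 (ENSMUSG00000028114) lies at chr3:123368297-123386108 on the minus strand and has 11 exons in its main transcript, Mettl14-201. Sec24d (ENSMUSG00000039234) lies at chr3:123267455-123365641 on the plus strand. The pair converge, with 2655 bp between their 3′ ends. Synpo2 (ENSMUSG00000050315) lies at chr3:123076519-123236149 on the minus strand, and 31305 bp separate its 5′ end from that of Sec24d. A transcript that starts at the Mettl14 promoter and runs on past its last exon therefore crosses Sec24d in antisense.

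Total estimated counts ranged from 103752000 to 126922000 in WT ladder libraries, from 104900000 to 118198000 in KO ladder libraries and from 12084500 to 13987900 in standard libraries (rounded to 6 digits). Of 10 progenitor markers, all 10 reached 1 CPM, the count of a gene scaled by the library's total, in every WT ladder library and 9 did so in every KO ladder library, Prom1 being the exception. Their summed level ran from 8562 to 9556 CPM in WT and from 6497 to 6898 CPM in KO. The 5 microglial markers summed to 0.0552 to 0.124 CPM in WT and 0.246 to 0.342 CPM in KO, with C1qa alone at 0 in both. How many long reads stand behind each assembly is not known here.

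The exons that all 7 KO structures of StringTie lacked come first, because the rest of the locus is read against them. Mettl14 exons 7, 8 and 9 (chr3:123374745-123374886, chr3:123373970-123374062 and chr3:123372557-123372673) are wholly coding, and in the mRNA sense, 5′ to 3′, they read as follows.

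Mettl14 exon 7: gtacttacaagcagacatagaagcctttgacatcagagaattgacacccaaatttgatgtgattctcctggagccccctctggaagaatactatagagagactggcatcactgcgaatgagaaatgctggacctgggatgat

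Mettl14 exon 8: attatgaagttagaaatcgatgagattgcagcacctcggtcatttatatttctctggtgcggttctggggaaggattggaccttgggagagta

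Mettl14 exon 9: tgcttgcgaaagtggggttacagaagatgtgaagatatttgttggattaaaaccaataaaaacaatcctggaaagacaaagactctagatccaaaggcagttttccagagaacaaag

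The joins below tell the genotypes' structures apart. Each shows the last 15 bases of the upstream exon in lower case and the first 15 of the downstream exon in capitals, from GENCODE M21 on GRCm38, and the stretches named span chr3:123374872-123376159, chr3:123371471-123372571, chr3:123371471-123376159 and chr3:123369676-123380234 in that order.

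exon 6 to exon 7: aaacactcctcccatGTACTTACAAGCAGA

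exon 9 to exon 10: ttccagagaacaaagGAGCATTGCCTGATG

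exon 6 to exon 10: aaacactcctcccatGAGCATTGCCTGATG

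exon 5 to exon 11: tcatcagggatgtagGCTGGCTCACAGTTG

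The first 2 joins are annotated and stood in every full-length structure. StringTie assembled the other two in KO RNA and not in WT, while FLAIR had the join of exon 6 to exon 10 in native RNA of both genotypes.

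StringTie assembled 10 structures with an annotated Mettl14 intron, 3 from WT and 7 from KO. In WT, native RNA gave 1 structure with all 11 exons at 19.8 TPM (a level per length, scaled within an assembly), with a coverage of 20.2 reads per base. WT cDNA gave the same exon chain at 1.62 TPM and a short one at 0.0662 TPM, in which exon 4 ran on through intron 4 and exon 5 into intron 5. No WT structure of StringTie left the gene.

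In KO, each of the 7 structures began within 146 bp of the annotated start and held exons 1 to 4 unbroken. They parted after that. Of the 3 native KO structures, the one at 7.74 TPM left the gene after exon 4 and the one at 3.36 TPM after exon 5, while the third, at 2.61 TPM, joined exon 6 to exon 10 and kept intron 10. The 4 cDNA KO structures left the gene after exon 4 (0.713 TPM), joined exon 6 to exon 10 and spliced on to exon 11 (0.565 TPM), joined exon 5 to exon 11 (0.252 TPM), or joined exon 6 to exon 10 and ended inside intron 10 (0.146 TPM). Exon 4 was thus the last exon that all KO structures shared, and 4 of the 7 did not hold exon 6.

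**Figure D1:**
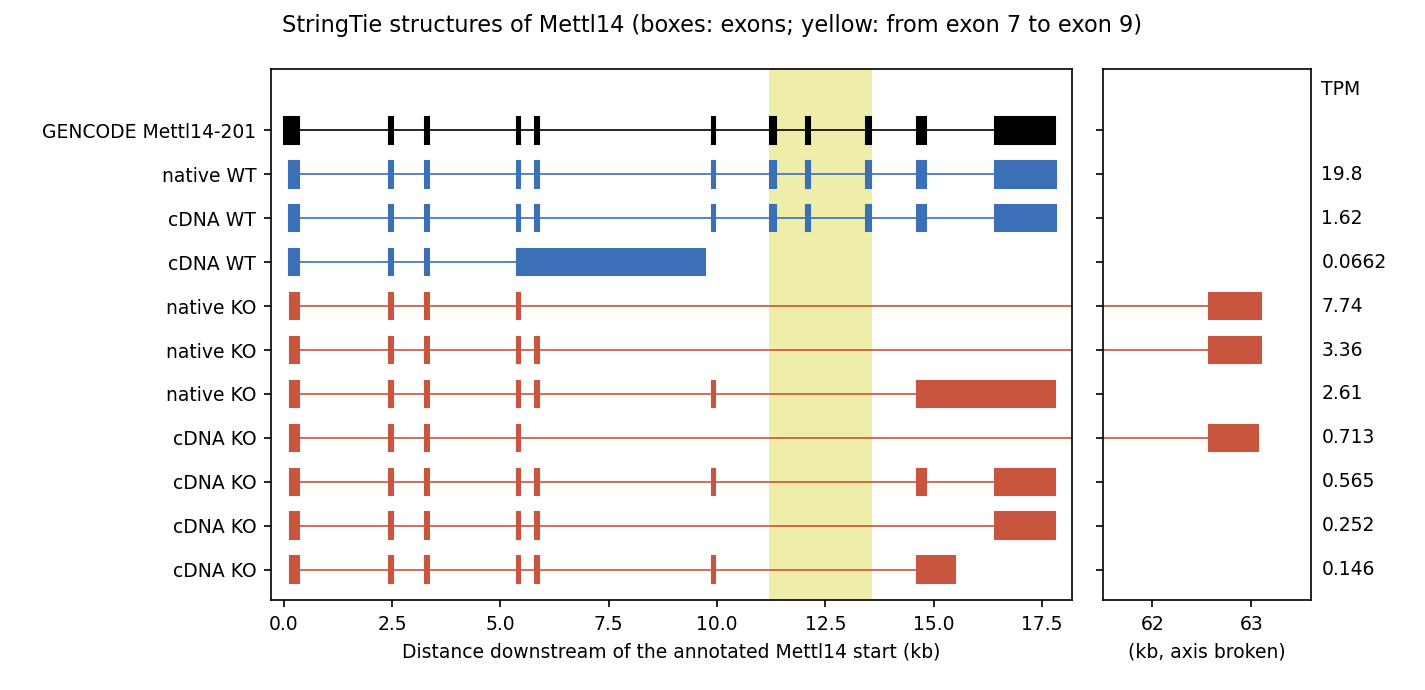
Exon maps of the annotated Mettl14-201 (black) and of the StringTie structures with a Mettl14 intron in WT (blue) and KO (red) pooled assemblies, by distance downstream of the annotated start in kb, with the axis broken between the gene and the distant exon and TPM at the right. No KO structure has a box in the yellow stretch, and 3 of the 7 end in the distant exon.

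The distant exon was the same in all 3 structures that left the gene. It lay on the minus strand at chr3:123323015-123323531 in native RNA and at chr3:123323039-123323531 in cDNA, so its acceptor end was identical and its 3′ end differed by 24 bp between the chemistries. It falls within intron 8 of Sec24d-201, a 21587 bp intron at chr3:123305921-123327507, in antisense, and overlaps no annotated exon of the 3 genes. The intron that joins it to exon 4 is 57116 bp long and the one that joins it to exon 5 is 56688 bp long. Among 75669 introns of the native KO assembly, 0.489% were as long as the first, and among 124907 of the cDNA KO assembly 0.942% were. The whole structure spans 63094 bp of the chromosome in native RNA.

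Structures that reach 10 kb or more past the 3′ end of the gene whose introns they hold were rare in general: 38 of 14851 in native KO RNA and 25 of 16805 in native WT RNA. In cDNA they numbered 317 of 27614 in KO and 346 of 28905 in WT. The 3 from Mettl14 are among the 38 and the 317. With 1 pooled assembly per genotype there is no replicate check on any of these counts.

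Structures with the distant exon held 80.9% of the Mettl14 TPM in native KO RNA and 42.5% in KO cDNA. Structures joining exon 6 to exon 10 held 19.1% and 42.4%. Both chemistries had the exit after exon 4 and the join of exon 6 to exon 10, while the exit after exon 5 was assembled in native RNA alone and the join of exon 5 to exon 11 in cDNA alone. Few reads stand behind them: the coverage of single KO structures lay between 1.80 and 8.81 reads per base.

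Summed over structures, coverage of exon 1 was 10.3 reads per base in WT and 8.96 in KO for native RNA, and that of exon 4 was 12 and 10.9. For exon 5 the values were 12 and 5, and for exon 6 they were 12 and 2. From exon 7 to exon 9 WT coverage stayed between 12 and 13.5, and KO coverage was 0. On exons 2 and 3 KO had 9 against 12 in WT. KO coverage, not scaled for the reads in each assembly, was thus at 75% to 90.6% of WT coverage over exons 1 to 4. It was lower on exon 5 and again on exon 6, at 0 on exons 7 to 9, and at 2.44 on exons 10 and 11. In cDNA the WT values ran from 16.9 to 31.3 over the 11 exons. KO cDNA had 8.18 to 14.3 over exons 1 to 4, or 48.5% to 70% of WT coverage. It had 7 on exon 5, 8.25 on exon 6, 0 on exons 7 to 9, 8.24 on exon 10 and 12.7 on exon 11. The assemblies differ in scale: in native RNA 6.48 reads per base went with 7.74 TPM in KO, and 20.2 with 19.8 TPM in WT. In cDNA 8.81 went with 0.713 TPM in KO, and 25.3 with 1.62 TPM in WT. These percents are therefore not levels of KO relative to WT.

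**Figure D2:**
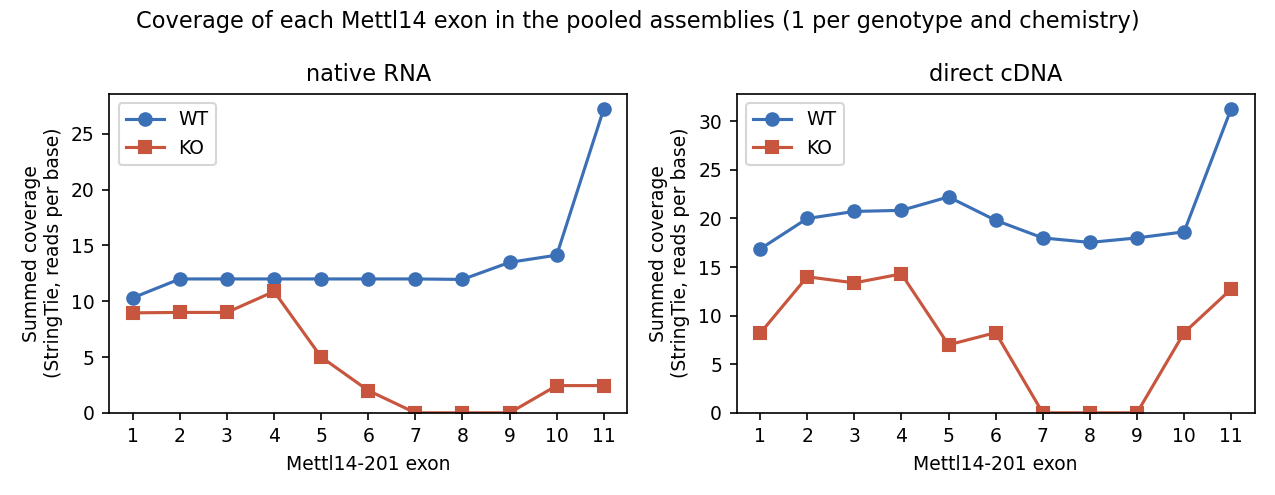
StringTie coverage in reads per base, summed over the structures of each pooled assembly, for the 11 exons of Mettl14-201 in native RNA (left) and direct cDNA (right), WT in blue circles and KO in red squares. KO lies at 0 on exons 7 to 9 in both chemistries and closest to the WT line on exon 4 in native RNA, at 10.9 against 12.

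The reading frames of the KO chains were computed from the annotated start codon. The annotated frame has 456 codons. Joining exon 6 to exon 10 keeps the first 167 codons and adds 4 before a stop in exon 10, which lies 201 bases before the junction with exon 11. Joining exon 5 to exon 11 keeps 137 codons, and the 101 that follow stay in the annotated frame up to its own stop in exon 11. The exons left out by that join make up a whole number of codons, so it has 238 codons in all. Exons 1 to 4 hold 324 coding bases, exactly 108 codons or 23.7% of the annotated frame, and those up to exon 5 hold 137 codons and 1 further base. The bases of the distant exon were not used here, so the frame past exons 4 and 5 in the structures that leave the gene is not given, and no protein was measured.

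FLAIR, which gives no abundance, differed between the chemistries. In cDNA it held the full 11-exon chain in WT and the chain with exon 6 joined to exon 10 in KO, with no structure joined outside the gene. It also held the distant exon as a single-exon structure in KO cDNA, on the plus strand, at chr3:123323039-123323494, and none in WT cDNA. In native RNA the FLAIR assemblies of both genotypes held the same 4 structures of the locus: a Sec24d chain from exon 2, the full Mettl14 chain, exons 1 to 6 joined to an exon at chr3:123370623-123371485, and the distant exon alone on the minus strand at chr3:123323015-123323533. Of 23430 structures in the native KO file, 96.8% had the same name and exons in the native WT file, so these files do not separate the genotypes at this locus.

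The short-read libraries then gave the level of each gene in every library. Mettl14 stood at 28.6, 23.2, 32.6 and 31.6 CPM in the WT ladder libraries and at 7.03, 9.25, 7.59 and 7.92 CPM in the KO ladder libraries. Every KO library lay below every WT library. The gene fell by 1.87 on the log2 scale (SE 0.133, adjusted p = 5.4e-07, edgeR quasi-likelihood test, adjusted by Benjamini and Hochberg over 18687 genes), to 0.274 of the WT level. In these bulk samples, fewer cells with a transcript and less of it per cell cannot be told apart.

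Synpo2 showed the widest difference of the 3. It stood at 0.393, 0.444, 0.276 and 0.487 CPM in WT and at 3.39, 3.25, 3.49 and 2.69 CPM in KO. All KO libraries lay far above all WT libraries. The rise was 3.00 on the log2 scale, or 8.01-fold (SE 0.179, adjusted p = 1.5e-07, edgeR). It rests on sums of 30.4 to 47.2 estimated counts per WT library and of 262 to 345 per KO library.

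Sec24d differed little and uncertainly. Its levels were 16.3, 16.6, 10.6 and 16.6 CPM in WT and 11.8, 11.7, 12.6 and 9.19 CPM in KO. WT library 3 lay among the KO libraries, and the other 3 WT libraries lay above all of them. The fitted change was -0.41 on the log2 scale (SE 0.156, 95% interval from -0.71 to -0.10, adjusted p = 0.044, edgeR), just past the threshold of 0.05. Without WT library 3 edgeR gave -0.54 with adjusted p = 0.0035, while leaving out any other WT library, or KO library 1, 2 or 4, ended the call, with adjusted p between 0.069 and 0.125. DESeq2 did not call it either (adjusted p = 0.083).

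All 3 genes passed the filter on low counts and all 3 passed the threshold, where 53.6% of all genes did (26.4% higher and 27.2% lower in KO). For 2 of the 3, Mettl14 and Synpo2, the libraries did not overlap, which held for 49.0% of all genes. A call in this comparison was thus common, and the size of the change sets Synpo2 and Mettl14 apart from Sec24d more than the call does.

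**Figure D3:**
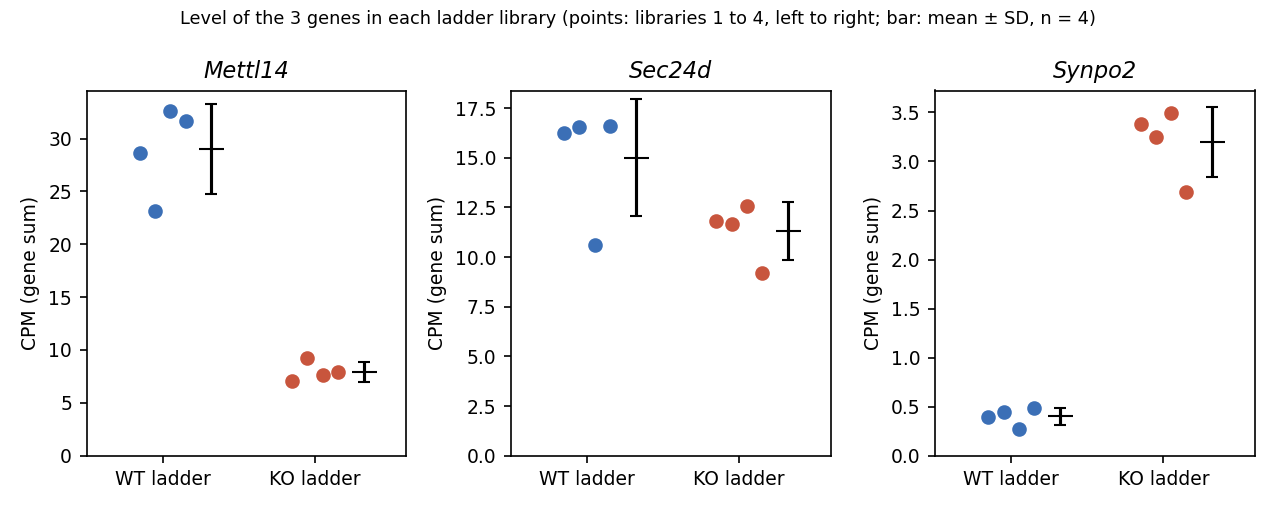
Gene level in CPM (linear axes from 0) in the 4 WT (blue) and 4 KO (red) ladder libraries, with mean and SD beside the points. Mettl14 and Synpo2 do not overlap between genotypes, and WT library 3 puts Sec24d at 10.6 CPM, inside the KO range.

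Summed mural and smooth muscle, meningeal fibroblast and striated muscle markers were higher in KO, as Synpo2 was. Summed neuron and endothelial markers overlapped between genotypes. Oligodendrocyte markers summed to 228 to 322 CPM in WT and were lower in KO, at 80.8 to 103.5 CPM. The 6 mural and smooth muscle markers summed to 2.60 to 3.55 CPM in WT and 11.7 to 14.8 CPM in KO. Of these, 3 (Pdgfrb, Acta2 and Tagln) were at 1 CPM or more in every KO library, and none was in every WT library. Tagln, the highest in KO, had a mean of 7.94 CPM there and so made up most of the sum. Acta2, the highest in WT, had a WT mean of 1.17 CPM. The 4 meningeal fibroblast markers summed to 0.278 to 0.633 CPM in WT and 2.77 to 3.8 CPM in KO. Of them only Col3a1, at a KO mean of 2.20 CPM, reached 1 CPM in every KO library. The 5 striated muscle markers summed to 1.44 to 1.79 CPM in WT and 2.27 to 2.44 CPM in KO. Of these, Actc1 alone reached 1 CPM in every KO library. Its mean was 0.731 CPM in WT and 1.70 CPM in KO, so the others together did not rise. None of the mural and smooth muscle, meningeal fibroblast and striated muscle markers was at 0 in either genotype. Their part in the Synpo2 result was not tested.

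Levels per length were compared between the genes on the TPM scale, in which ladder and standard files differ: targets under 300 bp took 25.3% to 39.2% of the TPM in ladder files and 0.782% to 0.910% in standard files. In WT ladder libraries Mettl14 was at 7.49 ± 1.01 TPM (SD, n = 4), Sec24d at 3.00 ± 0.813 TPM and Synpo2 at 0.0665 ± 0.0307 TPM. The order was Mettl14, Sec24d, Synpo2, and no 2 of their ranges overlapped. In KO ladder libraries Mettl14 was at 2.13 ± 0.410 TPM and Sec24d at 2.35 ± 0.467 TPM, which overlapped, with Synpo2 below both at 0.423 ± 0.116 TPM. In standard libraries the WT order returned, at 22.7 ± 1.81, 13.5 ± 1.39 and 0.997 ± 1.17 TPM (n = 3).

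Long reads gave another ratio for Mettl14. The TPM of all structures with a Mettl14 intron summed to 13.7 in KO and 19.8 in WT for native RNA, and to 1.68 in both genotypes for cDNA, against the 0.274 of the short-read gene counts. The annotated targets that kallisto counted include no chain with the distant exon and none that joins exon 6 to exon 10. Ladder files also hold 11338 assembled targets, which entered no gene sum. Whether any of those lies at Mettl14 and took its reads was not tested. Exons 1 to 4, which all KO structures hold, make up 605 of the 2741 bp of Mettl14-201, or 22.1%. TPM are scaled by length and the counts are not. The structures that leave the gene are 964 to 1064 bp long, and the 11-exon WT structures of StringTie are 2616 to 2628 bp long. Long-read TPM have no replicates here, and the parts of the unit and of the target set in this difference were not tested.

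Sec24d itself was assembled in every file. StringTie began it at exon 15 in native WT, exon 4 in native KO, exon 7 in cDNA WT and exon 4 in cDNA KO, all reaching the last exon, 23. Its TPM was 9.24 in WT and 4.89 in KO for native RNA, and 0.458 and 0.204 for cDNA. In both chemistries the KO value was the lower, at 1 assembly each, but these TPM belong to structures of unlike length. They are 1954 bp in native WT, 3537 bp in native KO, 2979 bp in cDNA WT and 3534 bp in cDNA KO. Native coverage was 13.5 reads per base in WT and 4.98 in KO on exon 23, but 2.95 and 4.63 on exon 15. On exon 4 it was 0 in WT and 1.72 in KO. In cDNA it was 11.2 and 3.64 on exon 23, and 0 and 1.99 on exon 4. FLAIR held the whole 23-exon chain in cDNA of both genotypes. No sense structure of Sec24d was joined to Mettl14. Synpo2 had no structure in any of the 8 assemblies. The other StringTie structures of the stretch were 3 single exons without a strand in cDNA, at 0.104 and 0.127 TPM in WT and 0.157 TPM in KO.

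The transcripts of the 3 genes were tested one by one. Of 20, 8 passed the filter on low counts; 4 rose and 1 fell in KO, where 35.2% of 48272 tested transcripts were called (17.3% higher and 17.9% lower). The 4 that rose are all of Synpo2, and the 1 that fell is Mettl14-201. The 12 that did not pass the filter stayed at 6.01 estimated counts or fewer in every ladder library.

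Mettl14-201, the full-length coding form, was at 26.4, 21.3, 32.5 and 29.9 CPM in WT and at 6.12, 8.58, 7.14 and 7.42 CPM in KO. It fell by 1.91 on the log2 scale (SE 0.167, adjusted p = 1.0e-04, edgeR). Estimated counts of 569.9 to 783.2 were still assigned to it in KO, in which StringTie assembled no structure with exons 7 to 9. Which exons the reads behind these counts cover was not tested.

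Mettl14-202 keeps introns 7 to 10 and Mettl14-204 keeps intron 10 alone. Mettl14-202 had 0.410 to 0.567 CPM in WT and 0.201 to 0.537 CPM in KO, with a fitted change of -0.32 that did not pass (adjusted p = 0.47, edgeR). Mettl14-204 had 0.341, 0.425, 0.302 and 0.349 CPM in WT and 0.430, 0.438, 0.452 and 0.540 CPM in KO. Its libraries did not overlap, as those of 37.9% of all transcripts did not, but the change of 0.39 did not pass either (SE 0.181, adjusted p = 0.13, edgeR). Mettl14-204 has no base that another Mettl14 transcript lacks, so kallisto's estimate rests on how reads are shared out. In 2 KO structures of StringTie, intron 10 was likewise entered from exon 10. Mettl14-203 and Mettl14-205 had at most 1.7 counts in any ladder library.

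Within Mettl14, the make-up of the counts differed between genotypes. The share of Mettl14-201 was 96.9% ± 0.740 in WT and 89.3% ± 2.03 in KO (SD, n = 4), and those of Mettl14-202 and Mettl14-204 were 1.78% ± 0.367 and 1.3% ± 0.433 in WT against 4.88% ± 2.24 and 5.73% ± 0.818 in KO. None of the 3 overlapped between genotypes. Each gave an exact two-sided permutation p of 0.0286, the smallest that 4 against 4 allows, unadjusted among 9 shares compared. Tested over all genes with diffSpliceDGE of edgeR, usage of Mettl14 transcripts differed with an adjusted p of 2.8e-04, where 19.6% of 10532 genes were called.

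The Synpo2 transcripts that rose differ in their ends. Synpo2-202 and Synpo2-203 begin in the first exon at the far 5′ end of the gene and end in the last exon at its far 3′ end (chr3:123076519-123080258). Synpo2-207 begins in the same first exon and ends earlier, in a long exon at chr3:123106603-123114626. The target counted as Synpo2-201 is 3719 bp long, where the transcript of that ID in GENCODE M21 has 8121 bp, so its exons are not described here. For the other 19 transcripts of the 3 genes the counted length is the annotated one. Synpo2-202 and Synpo2-203 have no base that no other Synpo2 transcript has, so their estimates rest on how reads are shared out.

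Synpo2-202 had 0, 0.0814, 0 and 0 CPM in WT and 1.87, 1.80, 1.73 and 0.805 CPM in KO (adjusted p = 0.0026, edgeR). Only WT library 2 held any of its counts, 9.2 of them, so no fold is given. Synpo2-203 rose from 0.110, 0, 0.0283 and 0.154 CPM to 0.537, 0.734, 0.926 and 1.27 CPM (log2 change 3.58, SE 0.783, adjusted p = 0.0094, edgeR). In KO library 4 the order of these 2 forms was the reverse of that in the other 3 KO libraries.

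Synpo2-201 rose from 0.132, 0.271, 0.161 and 0.226 CPM to 0.730, 0.581, 0.768 and 0.530 CPM, by 1.71 on the log2 scale (SE 0.266, adjusted p = 0.0017, edgeR). Synpo2-207 rose from 0.0990, 0.0633, 0.0850 and 0.0821 CPM to 0.290, 0.219, 0.189 and 0.169 CPM, by 1.39 (SE 0.267, adjusted p = 0.0046, edgeR). None of the 4 forms overlapped between genotypes.

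The make-up of Synpo2 counts differed too. The share of Synpo2-202 in the gene was 4.87% ± 9.73 in WT and 46.2% ± 11.9 in KO, that of Synpo2-201 was 50.7% ± 12.8 and 19.8% ± 1.85, and that of Synpo2-207 was 22.5% ± 7.05 and 6.53% ± 1.40 (SD, n = 4). Each gave the smallest exact permutation p, 0.0286. Synpo2-203, at 18.6% ± 15.6 and 27.3% ± 13.1, did not (exact permutation p = 0.46). Over all genes, usage of Synpo2 transcripts passed with adjusted p = 0.014 (diffSpliceDGE in edgeR), and this call was lost without WT library 1, 3 or 4 or KO library 2 (adjusted p from 0.057 to 0.082).

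**Figure D4:**
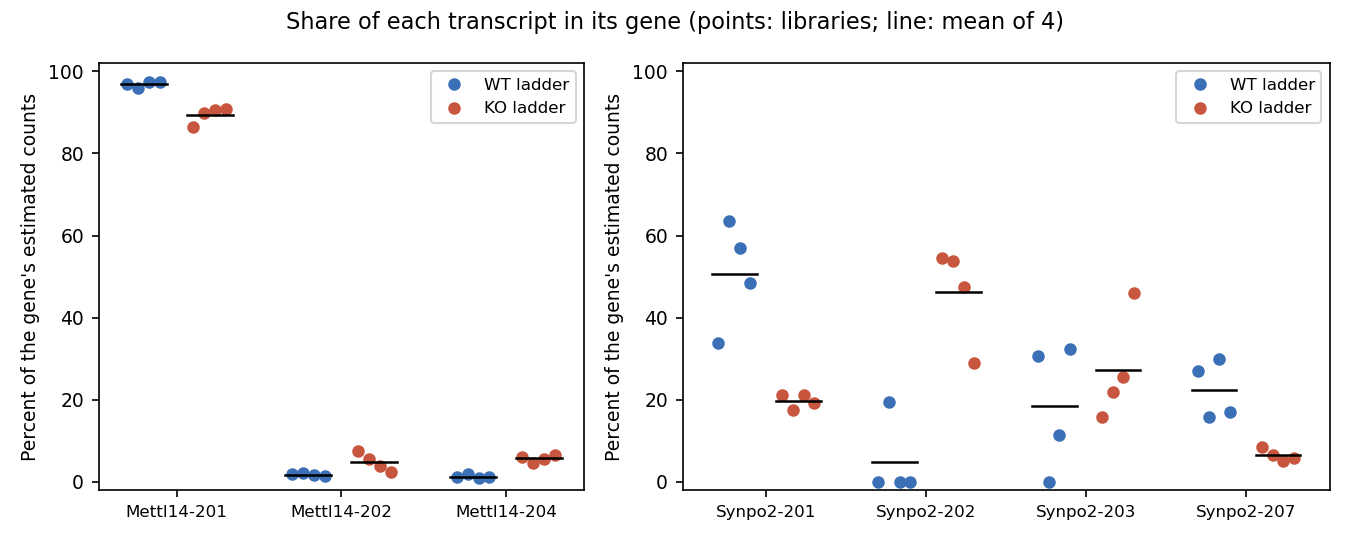
Percent of each gene's estimated counts held by its transcripts in the 4 WT (blue) and 4 KO (red) ladder libraries, points being libraries and lines means. Mettl14-202 and Mettl14-204 take larger shares in KO, and Synpo2-202 goes from a mean of 4.87% to 46.2%.

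Sec24d-201 was at 15.4, 15.8, 10.8 and 16.0 CPM in WT and at 11.8, 12, 13 and 9.4 CPM in KO, and its change of -0.33 did not pass at transcript level (adjusted p = 0.16, edgeR). It held 99.4% of the Sec24d counts in both genotypes. The other 7 Sec24d transcripts had at most 6.01 counts in any ladder library, so make-up could not be tested for this gene.

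Of the other COPII genes, 24 of 24 were tested: 6 rose and 7 fell, with a median log2 change of -0.04 beside -0.03 over all genes. That is close to the share of all genes called, 53.6%, with 26.4% higher and 27.2% lower, and so is no result about the coat. With Sec24d counted, 8 of 25 fell. Among the paralogs, Sec24a fell from 18.6 to 14.2 CPM (log2 -0.39, adjusted p = 0.047, edgeR), and Sec24b (0.18, adjusted p = 0.21) and Sec24c, the paralog most like Sec24d in sequence (-0.19, adjusted p = 0.26), did not pass. The largest rises were of Sec16b and Sec31b, which organise and build the outer coat and stayed low (0.365 to 3.37 CPM, log2 3.20, and 0.101 to 0.615 CPM, log2 2.59), and of Trappc3, a tethering factor subunit, from 94.3 to 161.8 CPM (0.78). The largest falls were of Sar1b, the GTPase that starts the coat, from 115.1 to 61.3 CPM (log2 -0.91), Sec23b, the partner of Sec24 in the inner coat (-0.68), and Mia2, a cargo receptor of the exit site (-0.51). In place of 8, 3 to 5 of the 25 fell without WT library 1, 2 or 4 or KO library 1, 2 or 4.

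Of the 7 other genes of the m6A writer, 6 rose and 1 fell, where 26.4% of all genes rose and 27.2% fell, with a median log2 change of 0.81 beside -0.03 over all genes. Rbm15 and Rbm15b, RNA-binding adaptors of the complex, rose from 11.7 to 58.6 CPM (log2 2.32) and from 35.1 to 128.0 CPM (1.87), and Wtap, the scaffold, from 48.3 to 94.4 CPM (0.97). Mettl3, the partner of Mettl14, went from 25.7 to 21.3 CPM (log2 -0.27, adjusted p = 0.036, edgeR). Its libraries did not overlap. But the call was lost with DESeq2 size factors, with DESeq2, without a filter, with TPM and with the replicate number as a block. It was also lost without WT library 3 or 4 or KO library 1, 2 or 4.

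In the synaptopodin and Z-disc list, 14 of 16 genes were tested (Myoz1 and Myoz2, muscle Z-disc proteins, were too low). With Synpo2 left out, 6 rose and 4 fell of 13, where 53.6% of all genes were called (26.4% higher and 27.2% lower), with a median of 0.25. Bag3, a co-chaperone that binds Synpo2, rose from 10.9 to 38.3 CPM (log2 1.81), Actn1, an actin crosslinker, from 8.72 to 29.5 CPM (1.76), and Pdlim3 from 0.50 to 1.31 CPM (1.39). Flnc, the muscle filamin, fell from 5.09 to 2.30 CPM (log2 -1.15), Synpo, the family's founding member, from 40.3 to 19.7 CPM (-1.03), and Actn2, the sarcomeric actinin, from 0.395 to 0.273 CPM (-0.53). Synpo2l, the third member of the family, was at 0.364 and 0.434 CPM and did not pass (adjusted p = 0.27, edgeR). Without WT library 3 or 4, 2 genes of the list fell in place of 4. The 3 family members therefore did not move together, and Synpo and Synpo2 went in opposite directions.

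Within 1 Mb of Mettl14 on either side the annotation has 47 genes, of which 14 were tested. Without Mettl14, Sec24d and Synpo2, 11 were tested: 2 rose and 1 fell, where 53.6% of all genes were called. Usp53, which lies 383786 bp away, rose from 9.66 to 17.6 CPM (log2 0.87, SE 0.139, adjusted p = 2.9e-04, edgeR), and Bcar3 rose from 26.9 to 35.6 CPM (0.40, adjusted p = 0.040). Tram1l1 fell from 0.215 to 0.0724 CPM (log2 -1.56, adjusted p = 0.0030, edgeR). Those nearest on the far side, Prss12 (-0.28) and Snhg8 (-0.03), did not pass, nor did Fnbp1l, Pde5a, 1810037I17Rik, Gm43285, Gm42510 and Gm4617. Synpo2 thus had a larger log2 change than the other 13 tested genes of the neighbourhood.

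**Figure D5:**
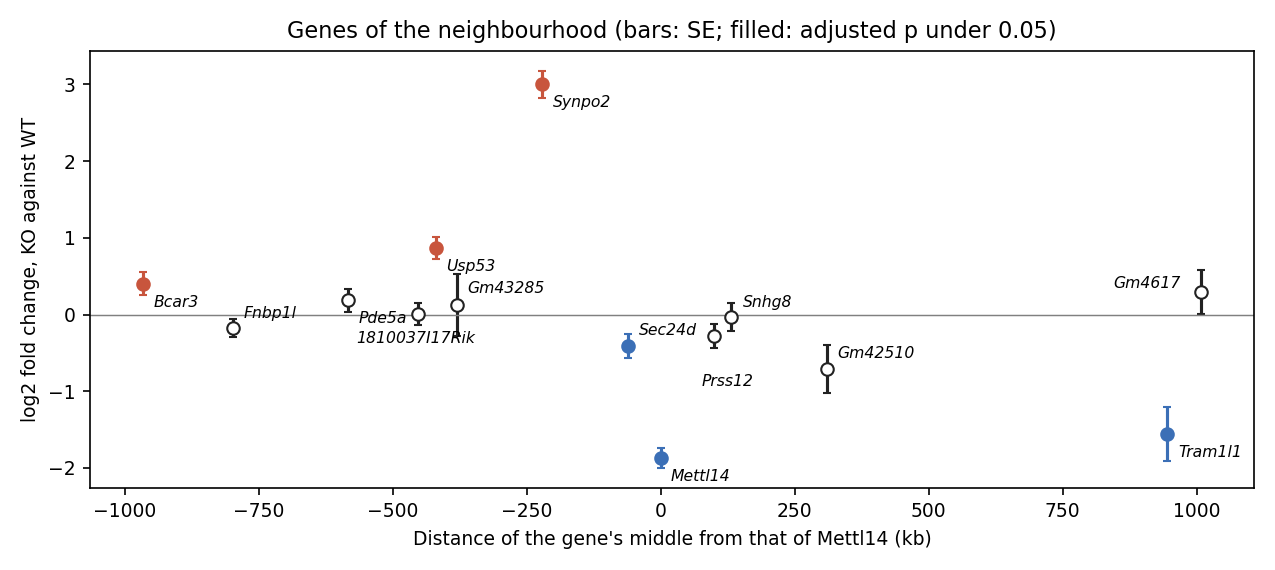
Log2 fold change of KO against WT with its SE for the 14 tested genes within 1 Mb of Mettl14, by the distance between gene middles in kb, filled where the adjusted p was under 0.05 (red higher, blue lower in KO). Synpo2 stands at 3.00 and Mettl14 at -1.87, while Prss12 and Snhg8, the nearest genes on the right, lie near 0.

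Over the 8 ladder libraries, the protein-coding genes whose log2 CPM followed Mettl14 most closely, among 11555 whose average log2 CPM was at least 1, were Rab7b (Pearson r = 0.9996) and Cbln1 (0.998). For Sec24d they were Ahcyl1 (0.997) and Gnai3 (0.994), and for Synpo2 they were Tgfbr2 (0.9995) and Slc24a3 (0.999). These r are descriptions over libraries that share a genotype within each group of 4, and 651 genes reached 0.95 with Mettl14, 187 with Sec24d and 1139 with Synpo2.

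The WT libraries of both kinds were compared over the 105848 annotated targets shared by all files. They differ in length selection, read length, pairing, depth and the set of targets counted at once, and those cannot be told apart. Each ladder file holds 150173 targets, 11338 of them assembled, while standard files hold 107368 or 116067 and no assembled ones. On this scale Mettl14 was at 35.2, 29.1, 42.0 and 38.7 CPM in ladder and at 31.6, 30.3 and 31.6 CPM in standard libraries, which overlapped, and the change of 0.22 did not pass (95% interval from -0.07 to 0.50, adjusted p = 0.23, edgeR); limma on TPM gave -1.49. Sec24d was at 20.0, 20.8, 13.7 and 20.3 CPM in ladder and 33.4, 25.5 and 24.2 CPM in standard libraries, and was lower in ladder libraries by a log2 of -0.57 (adjusted p = 0.033, edgeR). Sec24d-201 held 97.8% or more of its counts in each standard library. In the fit over transcripts its libraries overlapped, and its change of -0.25 did not pass (adjusted p = 0.33, edgeR). Synpo2 had 0.484, 0.557, 0.356 and 0.596 CPM in ladder and 0.395, 1.38 and 2.06 CPM in standard libraries, which are 5 to 32 counts. Its call (log2 -1.38, adjusted p = 0.036, edgeR) was lost without any 1 ladder library and without standard library 2 or 3, and that of Sec24d without ladder library 1 or standard library 1 or 2. So 2 of the 3 genes were called, both lower in ladder libraries, where 61.1% of 16131 genes were called (30.8% higher and 30.3% lower). Sec24d was the 1 whose libraries did not overlap, as for 62.0% of all genes.

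The transcripts were compared in the same way. Of the 7 tested, 1 was higher and 3 were lower in ladder libraries, all of Mettl14, where 47.4% of 48866 transcripts were called (24.0% higher and 23.4% lower). Mettl14-201 was at 30.5 to 45.5 CPM in ladder and 21.9 to 24.9 CPM in standard libraries (log2 0.73, adjusted p = 0.012, edgeR). With limma on TPM this direction turned (-1.10, adjusted p = 4.0e-04), and with the replicate number as a block the call was lost (adjusted p = 0.076, edgeR). The libraries of all 4 Mettl14 forms did not overlap between kinds, as for 56.3% of all transcripts. Mettl14-202, at 0.580 to 0.793 CPM in ladder and 1.36 to 1.83 CPM in standard libraries, was lower by a log2 of -1.22 (adjusted p = 0.016, edgeR). Mettl14-204, at 0.423 to 0.610 and 1.36 to 2.26 CPM, was lower by -1.84 (adjusted p = 0.0040, edgeR). Mettl14-203 was at 0 in 3 of the 4 ladder libraries and at 0.0145 CPM in the other one, against 0.799 to 1.36 CPM, or 11.7 to 22.7 counts, in standard libraries (adjusted p = 3.1e-04, edgeR). The estimated counts of the single-end libraries were thus spread over more Mettl14 forms, and the intron-keeping forms that took larger shares in KO also took 4.69% to 6.64% (Mettl14-202) and 4.71% to 8.60% (Mettl14-204) of the WT standard counts.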

How the data were processed

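RNA abundance was analysed in 11 short-read libraries and transcript structures in 8 long-read assemblies. Per the submitters' processing notes, the tools named were kallisto, STAR 2.5.4b, minimap2 2.17, StringTie and FLAIR, and the assembly headers give StringTie 2.0 in long-read mode. The estimated counts and the TPM per target are the authors' deposited kallisto output, and the StringTie TPM and coverage (a signal per base) are as deposited too. Nothing consulted says how reads from the 7 bands were merged into 1 ladder file. Targets were matched to GENCODE M21 (GRCm38), and estimated counts were summed per gene and rounded to whole numbers. Ladder files also hold assembled targets, which took 11.9% to 13.4% of the counts and entered no gene sum.

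All genes and all transcripts were fitted with edgeR 4.0.16 (R 4.3.3; filterByExpr, TMM, robust quasi-likelihood), with Benjamini-Hochberg adjusted p-values called under 0.05, and usage with diffSpliceDGE. Scripts were tested on simulated data. Alternatives used DESeq2 1.42.0, limma 3.58.1 on log2(TPM + 1), no filter, the replicate number as a block and each library left out. Shares of a gene's counts were compared by an exact two-sided permutation test. Log2 CPM of ladder replicates correlated at 0.988 to 0.993 within WT and 0.989 to 0.993 within KO.

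Named were the 3 genes and their transcripts, tested genes within 1 Mb, from each list the 3 largest rises and 3 largest falls that passed, the Sec24 paralogs, and the 2 genes most like each of the 3 over 8 libraries. The members and lists were chosen with earlier results of these data known. Neuron, oligodendrocyte and endothelial markers summed to 278 to 407, 228 to 322 and 3.76 to 4.67 CPM in WT, and to 238 to 353, 80.8 to 103.5 and 3.50 to 4.28 CPM in KO; microglial markers summed to at most 0.342 CPM.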

Additional observations from a re-analysis of the deposited data

Results flagged for a closer look

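In 5 groups of 4 libraries, 1 library stood apart by Dixon's criterion, which chance meets in about 1 of 20 groups. The number of groups screened is not given here, so the 5 cannot be set against that rate. They are not all separate either, since Sec24d and Sec24d-201 share nearly all counts, and Synpo2-202 in WT library 2 enters by level and by share. WT library 3 was low for Sec24d, at 10.6 CPM for the gene and 10.8 CPM for Sec24d-201. For Synpo2-202, WT library 2 was the 1 WT library with counts, at 0.0814 CPM or 19.5% of the gene's counts, and KO library 4 was low, at 0.805 CPM.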

How the results depend on the processing

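Mettl14 and Synpo2 kept their direction and their call between genotypes under every alternative run, although limma on log2(TPM + 1) put Synpo2 at 0.41 in place of 3.00, since the pseudocount exceeds its TPM in both genotypes. The call for Sec24d was lost without a filter (-0.35, adjusted p = 0.059), with DESeq2 (-0.35), with the replicate block (-0.39) and with limma on TPM (-0.24), and single libraries left out gave -0.54 to -0.31 (adjusted p from 0.0035 to 0.125). Replicate numbers did not pair the libraries (correlations of deviations from -0.02 to 0.05 for equal numbers), so the block serves as a check only. With single libraries left out, 1 to 2 transcripts fell (Sec24d-201 was the added one, without WT library 3) and 1 to 2 genes passed for usage. Synpo2-207 did not pass with limma (0.01).

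In the lists, 4, 3 and 3 COPII genes fell without a filter, with DESeq2 and with limma (3 to 8 with libraries left out), 0 m6A writer genes fell with DESeq2 size factors, no filter, DESeq2, the block or limma (0 to 1), and 2 to 4 synaptopodin and Z-disc genes fell with libraries left out. With limma, 1 neighbouring gene fell.

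Between library kinds, limma on TPM reversed Mettl14 (-1.49) and Mettl14-201 (-1.10). The number of genes lower in ladder libraries was 0 without a filter, 1 with the block and 0 to 1 with libraries left out. Of transcripts, 2 were higher without a filter and with DESeq2, and 0 with the block and with limma, while 1 was lower with the block and 6 with limma. On TPM shares the difference of Sec24d-201 reversed to 1.08 points.

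FLAIR in place of StringTie gave 2 native WT structures with a Mettl14 intron, 1 native KO structure with exons 7 to 9 and 0 joined outside the gene, 1 cDNA WT structure (also 1 at a StringTie coverage of 2 or more), and 1 cDNA KO structure with 0 joined outside. The cause of these changes was not tested. Leaving out a library, or permuting within blocks, cannot bring an exact p of a share below 0.0571 or 0.125.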
